A study of Xenopus laevis with 5 samples.

Results

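The 5 genes described here, snai1.S, snai2.S, pitx1.L, otx1.L and pax3.L, encode transcription factors of the neural border and of the anterior ectoderm. They were chosen by gene symbol, and every probe set that the platform annotation gives to 1 of these symbols was taken. This gave 8 of the 15491 probe sets of the array that are not controls: 1 each for snai1.S, snai2.S, pitx1.L and otx1.L, and 4 for pax3.L. Xenopus laevis is allotetraploid, and the suffixes .L and .S name the long and short homeologs of a gene.

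RNA came from ectodermal explants of Xenopus laevis that developed after mRNA injection into the embryo at the 2-cell stage. The ICD group (3 arrays) received ICD mRNA and the HMM group (2 arrays) received HMM mRNA. The labels give neither name in full and name no wild-type strain or genotype. In work on Notch signalling, ICD usually stands for the Notch intracellular domain, which turns on the targets of the pathway, and HMM for a truncated Mastermind that blocks them. All embryos of both groups were raised in 0.1X MMR saline, and the animal caps were cut at stage 9 to 10. They were cultured on fibronectin-coated coverslips in Danilchik's medium with 0.1% BSA and harvested at the equivalent of stage 22. No uninjected explants were analysed here, so a difference between ICD and HMM does not show which group moved.

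The neural border is the strip of ectoderm between neural plate and epidermis that gives rise to neural crest, cranial placodes and, in the frog, hatching gland. Pax3 is an early marker of this strip in Xenopus and acts with Zic1 in crest formation and alone in hatching gland formation. Snai1 and Snai2 are zinc finger repressors that mark the prospective crest and act in the loosening of epithelial contacts. Otx1 and Pitx1 are homeodomain factors of the head, the second of them expressed in the cement gland and the oral ectoderm of the frog embryo. Isolated animal caps form epidermis unless neural or mesodermal signals reach them.

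Values are MAS5 signal intensities, a summary of the probes of a probe set that the authors scaled to the same trimmed mean on every array. Signals of different probe sets cannot be ranked against each other, so only arrays are compared. A probe set was tested where its signal exceeded 42.6 on at least 2 arrays, which held for 9981 probe sets. Differences are ICD minus HMM of log2(signal + 5.9), and a gene is said to have risen or fallen only where limma's Benjamini-Hochberg adjusted p over all 9981 was below 0.05. Nothing in the labels says that replicates came from separate clutches or cultures, so p-values measure the spread between these samples, which may be technical.

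On the log2 scale, pairs of arrays correlated across tested probe sets at 0.907 to 0.957 within a group and at 0.739 to 0.878 between groups. ICD replicate 1 and HMM replicate 1 stood apart from the rest on the second principal component (27.2% of the variance), at 32.8 and 33.5 where the other 3 arrays lay between -30.7 and -9.17. ICD replicate 3 stood apart in its poly-A spike-in controls, with a median signal of 2.4 over 27 probe sets against 301.4 to 346.6 on the other arrays. Of the epidermal keratins, krt12.4.L read 5966 to 7696 in ICD and 6849 and 7730 in HMM, while krt62.L stayed below the filter value on every array. The groups also overlapped for krt7.L, krt8.1.S, krt70.L and krt70.S. The homeolog krt12.4.S read 4433 to 6520 in ICD and 7455 and 7171 in HMM. For krt12.5.S the signals were 5145 to 6373 and 7188 and 6567. All ICD arrays thus lay below the HMM arrays for these 2, as in 16.5% of all 15491 probe sets, and neither difference passed. The defining mesoderm markers tbxt.S and myod1.L stayed below the filter value on every array, at 8.6 to 27.6 and 20.6 to 34.9. None of the marker lists used here held a gene listed at 0 on any array.

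**Figure D1:**
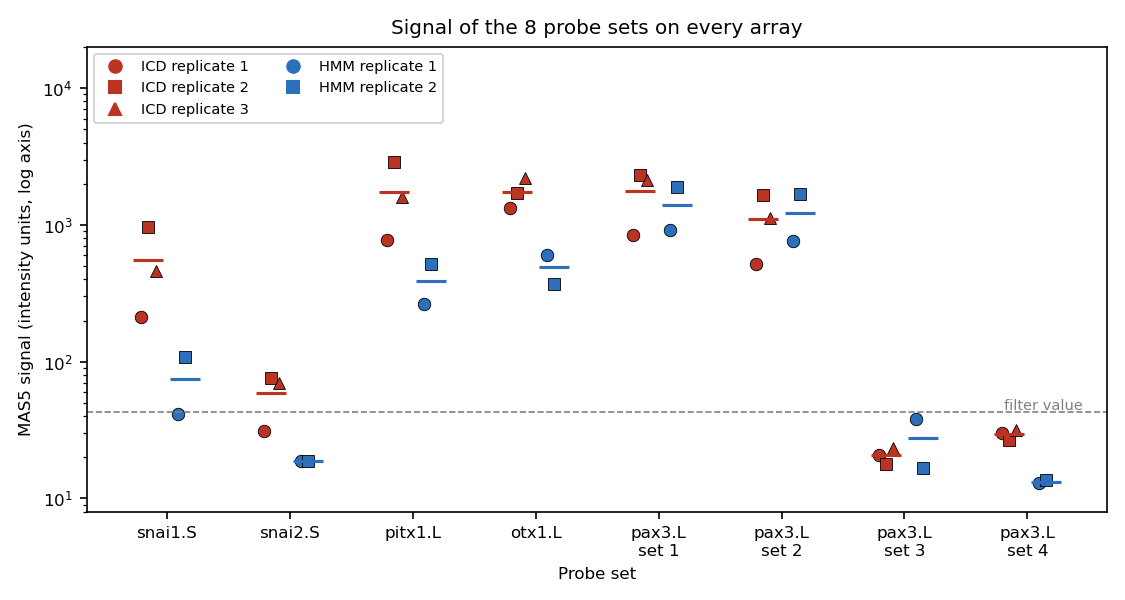
MAS5 signal (intensity units, log axis) of the 8 probe sets on the 3 ICD and 2 HMM arrays, with horizontal bars at the group means and the filter value of 42.6 dashed. The ICD arrays lie above the HMM arrays for snai1.S, snai2.S, pitx1.L, otx1.L and the dim set 4 of pax3.L, and the groups overlap for the other 3 pax3.L probe sets.

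Across the 5 genes, the head gene otx1.L rose in ICD explants, snai1.S, pitx1.L and snai2.S were higher on every ICD array than on either HMM array without passing the threshold, and pax3.L showed no such separation on its brightest probe sets. Of the 8 probe sets, 5 had all ICD arrays above both HMM arrays, none had them all below, and 3 overlapped. Over all 15491 probe sets, 16.3% had the first order and 16.5% the second. The 5 genes were chosen with earlier results of these data known, and 4 of the 8 probe sets measure pax3.L, so these counts only describe them. Among the 6 probe sets that could be tested, otx1.L was the 1 called, where 1.55% of tested probe sets were called higher in ICD. The tested probe set of snai2.S passed the filter through ICD replicates 2 and 3 alone, so that its presence among the tested depends on the group where it was high. The calls of all probe sets depended on single arrays: the share called higher was 3.63% with ICD replicate 1 left out, 0.301% with ICD replicate 3 and 0.661% with HMM replicate 1 left out, and 0.01% on leaving out ICD replicate 2 or HMM replicate 2.

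Otx1 patterns the forebrain and sense organs of vertebrates. Its probe set read 1319, 1717 and 2210 on ICD replicates 1, 2 and 3, and 605 and 373 on HMM replicates 1 and 2. The lowest ICD array was thus more than the highest HMM array, and the spread within a group was narrow, with a ratio of highest to lowest of 1.68 in ICD and 1.62 in HMM. The ICD mean was 1749 ± 446 (SD, n = 3) and the HMM mean 489 ± 164 (SD, n = 2). On the log2 scale otx1.L rose by 1.84 ± 0.31 (SE; 95% interval 1.1 to 2.57), 3.57-fold (limma adjusted p = 0.0241), which ranked at place 237 by p among the tested probe sets. Leaving out ICD replicate 1 gave 2.02 and leaving out HMM replicate 1 gave 2.18, both past the threshold. The call was lost when ICD replicate 2 (difference 1.83), ICD replicate 3 (1.65) or HMM replicate 2 (1.49) was left out (limma adjusted p = 0.0813, 0.0722 and 0.178).

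Snai1 represses cadherin genes and is among the earliest genes of the prospective neural crest in Xenopus. The snai1.S signal was 213 on ICD replicate 1, 971 on replicate 2 and 464 on replicate 3, against 41.2 and 108 on HMM replicates 1 and 2. Every ICD array exceeded both HMM arrays, yet the ICD arrays themselves spanned 4.55-fold and the HMM arrays 2.61-fold. The ICD mean was 549 ± 386 (SD, n = 3) and the HMM mean 74.4 ± 46.9 (SD, n = 2). The fitted difference of 2.67 ± 0.65 (SE; 95% interval 1.14 to 4.20), 6.36-fold, was the widest of the 5 genes and did not pass (limma adjusted p = 0.0681). It passed with arrays centred on their medians, at 2.70 (limma adjusted p = 0.0470). It also passed without ICD replicate 1, at 3.21 (limma adjusted p = 0.00680), and not without ICD replicate 3, at 2.66 (limma adjusted p = 0.173).

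Snai2, known as Slug, follows in the specified and migrating crest. Its .S probe set was dim, with signals of 31.0, 76.3 and 69.4 in ICD and 18.9 and 18.7 in HMM. ICD replicate 1 and the HMM arrays lay below the filter value of 42.6. The ICD mean was 58.9 ± 24.4 (SD, n = 3) and the HMM mean 18.8 ± 0.141 (SD, n = 2). ICD exceeded HMM by 1.31 ± 0.42 (SE; 95% interval 0.32 to 2.30), which missed the threshold (limma adjusted p = 0.140). At signals this close to the pseudocount the log2 scale understates the change: it was 1.54 without a pseudocount and 0.91 with 4 times the pseudocount, and the call did not change. Without ICD replicate 1 the difference was 1.67 and passed (limma adjusted p = 0.0162), and without ICD replicate 3 it was 1.16 and did not (limma adjusted p = 0.365). The homeolog snai2.L read 23.3, 25.7 and 51.6 in ICD and 17.5 and 11.6 in HMM. It exceeded the filter value on 1 array and was not tested with the others. Its ICD arrays also lay above its HMM arrays, by 0.89, which missed the threshold in the fit of all probe sets without a filter (limma adjusted p = 0.327, where 0.833% of probe sets were called higher).

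Pitx1 is a paired-type homeodomain factor of the cement gland, the mouth region and the pituitary placode. Its .L probe set gave 770 on ICD replicate 1, 2887 on replicate 2 and 1606 on replicate 3, and 263 and 521 on HMM replicates 1 and 2. The order of the arrays was that of snai1.S: ICD replicate 2 highest, then ICD replicates 3 and 1, then HMM replicate 2, with HMM replicate 1 lowest. The ICD mean was 1755 ± 1066 (SD, n = 3) and the HMM mean 392 ± 182 (SD, n = 2). The difference of 2.03 ± 0.55 (SE; 95% interval 0.72 to 3.33), 4.08-fold, did not pass (limma adjusted p = 0.0934). It was 2.52 and passed without ICD replicate 1 (limma adjusted p = 0.00771), and it was 1.99 without ICD replicate 3 (limma adjusted p = 0.233).

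The 4 probe sets of pax3.L did not give 1 pattern. The brightest (set 1) read 847, 2328 and 2133 in ICD and 925 and 1893 in HMM, so that ICD replicate 1 lay below both HMM arrays. The second (set 2) read 520, 1650 and 1133 in ICD and 758 and 1696 in HMM, and here HMM replicate 2 was the highest array. On both, the 2 replicates numbered 1 were the lowest arrays. Their differences were 0.29 ± 0.50 (SE; 95% interval -0.88 to 1.46) and -0.19 ± 0.53 (SE; 95% interval -1.44 to 1.06), and neither passed (limma adjusted p = 0.796 and 0.882). These intervals include a change of 2-fold in either direction for set 2 and upwards for set 1, and the missed threshold does not show equal levels. The sign was not stable: set 1 was at -0.23 without HMM replicate 1, and set 2 at 0.27 without ICD replicate 1 and 0.38 without HMM replicate 2.

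The other pax3.L probe sets stayed below the filter value on every array. Set 3 read 20.7, 18.0 and 23.5 in ICD and 38.3 and 16.8 in HMM, and the groups overlapped. Set 4 read 29.9, 26.6 and 31.9 in ICD and 12.9 and 13.6 in HMM. For set 4 all ICD arrays were above the HMM arrays, with a narrow spread in each group. Its difference of 0.88 ± 0.28 (SE; 95% interval 0.23 to 1.54) in the fit without a filter did not pass (limma adjusted p = 0.174). The homeolog pax3.S, on a probe set that exceeded the filter value on 1 array, read 15.6, 40.7 and 77.2 in ICD and 2.7 and 2.6 in HMM. Its difference in the fit without a filter was 2.35 ± 0.54 (SE) and did not pass either (limma adjusted p = 0.0740). Thus all ICD arrays lay above the HMM arrays for set 4 of pax3.L and for pax3.S, and not for the bright pax3.L sets. Over all 15491 probe sets, 16.3% had all ICD arrays above the HMM arrays. Which of the pax3 probe sets follow the pax3 transcript was not tested.

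**Figure D2:**
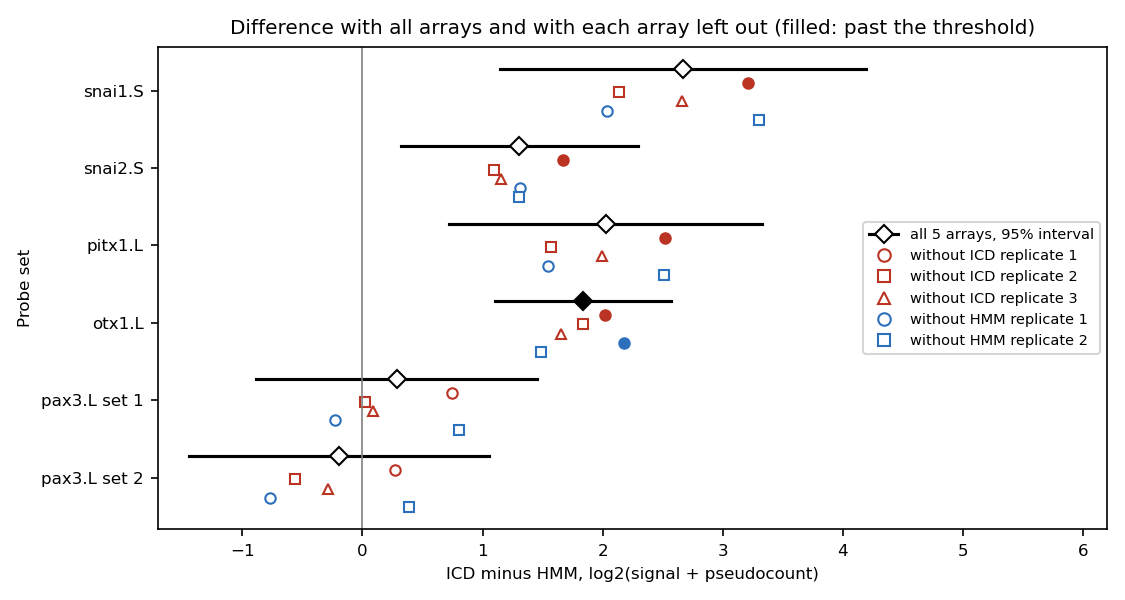
Difference of ICD minus HMM in log2(signal + 5.9) for the 6 tested probe sets, with all 5 arrays (diamond, 95% interval) and with each array left out (red for ICD, blue for HMM, symbol by replicate number). Filled symbols passed the adjusted p threshold: otx1.L with all arrays and without ICD replicate 1 or HMM replicate 1, and snai1.S, snai2.S and pitx1.L without ICD replicate 1.

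Replicates of a group differed as well. ICD replicate 1 was the lowest ICD array for all 6 tested probe sets of the 5 genes, and it was the lowest for 41.8% of all tested probe sets. The mean of ICD replicates 2 and 3 exceeded ICD replicate 1 by 1.63 for snai1.S, 1.48 for pitx1.L, 1.39 and 1.38 for the bright pax3.L sets and 1.09 for snai2.S on the log2 scale. For otx1.L this gap was 0.56. Over all tested probe sets the median gap was 0.0358, and 9.28% had a gap over 1. Between HMM replicates, replicate 2 exceeded replicate 1 by 1.27 for snai1.S, 0.97 for pitx1.L and 1.03 and 1.16 for the bright pax3.L sets. The HMM gap was -0.69 for otx1.L and -0.0117 for snai2.S, so these genes did not share that order. Over all tested probe sets the median HMM gap was -0.0678, and 6.93% had a gap over 1.

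Genes with like array profiles were sought next. Likeness was measured as the Euclidean distance between profiles of log2 values over the 5 arrays, each centred on its mean, and it is a description of 5 points. The tested named probe set nearest to snai1.S was that of pitx1.L, at 0.76, followed by dhx32.L, a helicase-family gene (0.77), and fstl1.L, which encodes a secreted follistatin-like glycoprotein (0.84). Nearest to pitx1.L were dhx32.L (0.30), the myelin protein gene pmp22.S (0.65) and vwa2.S, a gene of an extracellular matrix protein (0.66). For snai2.S they were the autophagy gene atg16l1.L (0.31), the acid phosphatase gene acp5.S (0.32) and fndc3c.L (0.33). The nearest to otx1.L were shisa1.1.L (0.24), whose product holds back Wnt and FGF receptors in the Xenopus head, cdca7.L (0.25) and a fibronectin probe set of fn1.S (0.26). Among the neighbours, fstl1.L and cdca7.L passed the filter through ICD arrays alone, the group where they were high. The levels of shisa1.1.L were 294, 445 and 476 in ICD and 125 and 84.9 in HMM, and its difference of 1.88 follows from its choice as the profile nearest to otx1.L. The bright pax3.L sets lay nearest to the adhesion gene nectin2.L (0.21) and the EGF receptor inhibitor gene errfi1.L (0.24), and at 0.61 from each other. Both were farther from snai1.S, at 2.71 and 3.16, than from snai2.S, at 1.36 and 1.88. The snai2.S probe set itself lay at 1.915 from snai1.S, and otx1.L at 2.13.

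**Figure D3:**
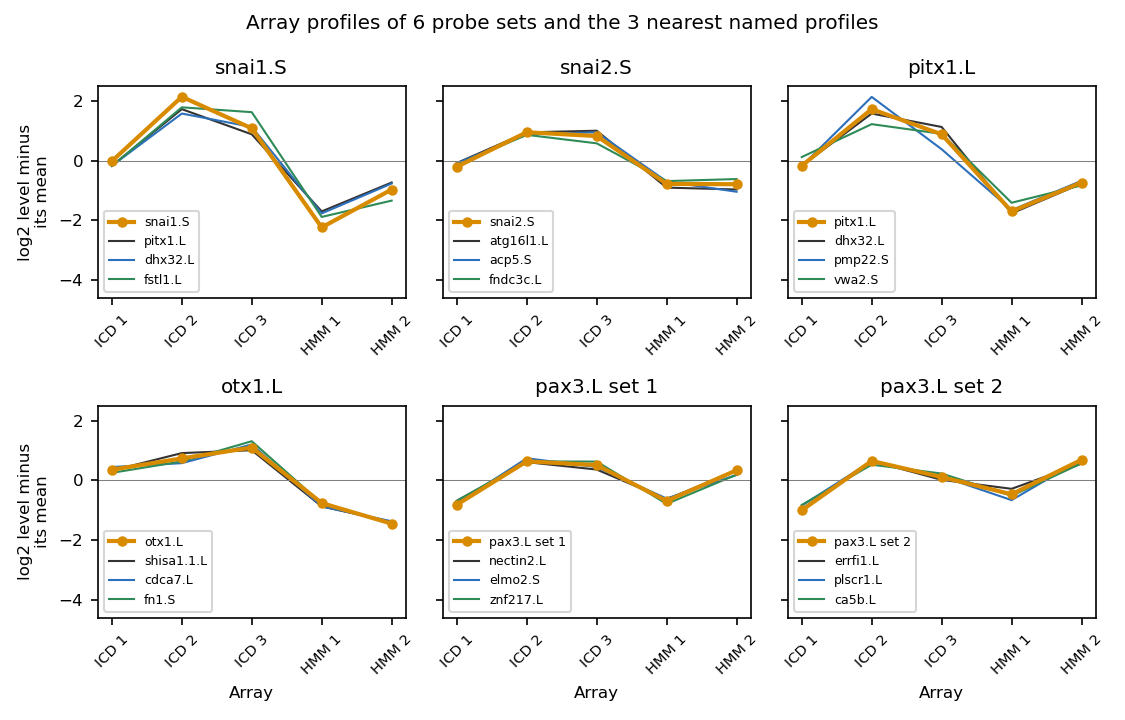
Array profiles (log2(signal + 5.9) minus its mean over the 5 arrays) of the 6 tested probe sets in orange and of the 3 nearest named probe sets of each, with lines that only join the points of 1 probe set. The snai1.S and pitx1.L profiles peak on ICD replicate 2, otx1.L on ICD replicate 3, and both pax3.L sets are low on ICD replicate 1 and HMM replicate 1.

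Other regulators of the neural border were measured beside pax3.L. Of 18 such genes on the array 15 could be tested, 1 rose, none fell and 14 did not pass, with a median difference of 0.51 against 0.0776 over all tested probe sets. Of all tested probe sets, 1.55% were called higher and 3.5% lower. The riser was hes4.L, a repressor of the border that also responds to Notch, which read 2036, 2337 and 2476 in ICD and 1015 and 1075 in HMM (difference 1.12, limma adjusted p = 0.0247; 0.0502 in eBayes with no trend, where the call was lost). The distal-less gene dlx6.S differed by 1.01, hes4.S by 1.09 and gbx2.2.L, a posterior homeobox gene, by -1.78, and none of them passed. The groups overlapped for hes4.S, at 1076, 279 and 374 in ICD and 171 and 292 in HMM. Of the 15 differences 11 were above 0 and 4 below, the latter with msx1.S (-0.57), dlx3.S (-0.42) and msx1.L (-0.09) beside gbx2.2.L. The gbx2.2.L probe set was among the tested through the HMM arrays alone, the group where it was high. The partner gene of Pax3, zic1.S, was too dim to test, at 16.7 to 42.2 in ICD and 13.0 to 17.4 in HMM. Without ICD replicate 1, 4 of the 15 were called higher, with zic2.S, zic2.L and tfap2a.L beside hes4.L, where 3.63% of all probe sets were called higher. Of these, zic2.L passed the filter through ICD replicates 2 and 3 alone, so that its presence among the tested depends on the group where it was high. None of the 15 was called without any 1 of the other 4 arrays. The summed signal of the 15 was 12790 to 14060 in ICD and 9564 and 10190 in HMM.

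Among genes of the neural crest, to which the snai genes belong, none of 9 tested of 16 on the array passed, and the median difference was 0.27. The proto-oncogene myc.S, a gene of crest progenitors, differed by 1.23 and ets1.L, a gene of cranial crest, by 0.43. The crest genes foxd3.S, foxd3.L and sox10.L, with signals of at most 28.5 on any array, and sox9.S, at most 38.3, were too dim to test. For 2 of the 9 tested genes, snai1.S and snai2.S, all ICD arrays lay above the HMM arrays, and 20.4% of all tested probe sets had that order. Of these 2, snai2.S passed the filter through ICD arrays alone. The untested sox9.S, foxd3.L and snai2.L also had that order, so it was not particular to the tested snai genes. Without ICD replicate 1, myc.S, snai1.S and snai2.S were called, and without any 1 of the other arrays none was. Without ICD replicate 1, 3.63% of all tested probe sets were called higher. The summed signal of the 9 genes was 3922 to 5092 in ICD and 2857 and 3294 in HMM. Bright probe sets weigh most in such a sum. Here id3 read 1157 to 1614 in ICD and 1158 and 1150 in HMM, and did not pass. The id3.S signals were 1196 to 1560 in ICD and 897 and 1324 in HMM, and it did not pass either.

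None of 10 tested cofactor and turnover genes of Snail proteins passed. The Polycomb gene suz12 differed by 0.83, the kinase gene gsk3b.L, whose product marks Snail for breakdown, by 0.65, the corepressor gene sin3a.S by 0.57 and the demethylase gene kdm1a.S by 0.56. Of these, gsk3b.L passed the filter through ICD replicates 1 and 3 alone, the group where it was high. Over all tested probe sets, 1.55% were called higher and the median difference was 0.0776. Of 8 tested genes of epithelial and mesenchymal cells, on which Snail proteins act, 2 rose and 6 did not pass, with a median of 0.93. They were the tight junction gene cldn1.S, at 2155, 1745 and 1418 in ICD and 507 and 424 in HMM (difference 1.90, limma adjusted p = 0.0163), and the fibronectin gene fn1.S (1.21, limma adjusted p = 0.0302; 0.0630 in eBayes with no trend, where it was not called). Claudin 1 is a component of epithelial junctions and fibronectin of the mesenchymal matrix. The cadherin gene cdh3.L differed by 0.97 and the intermediate filament gene vim.L by 1.05. For the E-cadherin gene cdh1.S the difference was 0.48 (limma adjusted p = 0.538). The count of called genes in this list was 2 without ICD replicate 1, 1 without ICD replicate 3 or HMM replicate 1, and 0 without ICD replicate 2 or HMM replicate 2.

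Of 24 anterior and placode genes on the array 10 could be tested, 1 rose and 9 did not pass, where 1.55% of all tested probe sets were called higher. The riser was otx1.L itself, and the median difference of the list was 1.01, or 0.85 over the 8 genes other than otx1.L and pitx1.L. The head gene otx2.L read 295, 1107 and 987 in ICD and 176 and 288 in HMM on its brightest probe set, which differed by 1.58 (limma adjusted p = 0.189), and its other probe set differed by 1.55 (limma adjusted p = 0.0730), so neither passed. The related gene crx.L, known as otx5 in the frog, differed by 1.40. Without ICD replicate 1, otx1.L, pitx1.L, otx2.L and otx2.S were called, where 3.63% of all tested probe sets were called higher. Without HMM replicate 1 only otx1.L of the tested genes was, and without any 1 of ICD replicates 2 and 3 and HMM replicate 2 none was. The eye and placode genes rax.L, six6.L, pitx3.L and lhx2.L read at most 17.3 on every array and were not tested. Also untested, foxe3.L, eya1.L and pax2.L were higher on every ICD array than on either HMM array. That order was found in 16.3% of all 15491 probe sets. For foxe3.L the signals were 40.8, 83.5 and 36.5 in ICD and 24.3 and 10.2 in HMM. The groups overlapped for the remaining untested genes of the list.

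Glands and neural tissue were represented by 2 lists, to be read beside the 1.55% of all tested probe sets that were called higher. Of 6 tested genes of the cement and hatching glands, agr2.S and ag1.S, both known as secreted products of the cement gland, rose by 1.45 and 1.15, and 4 did not pass. Of these, agr2.L differed by 1.39 and astl2d.1.L, an astacin protease gene, by -1.07. The summed signal of the list was 26010 to 29830 in ICD and 18990 and 19310 in HMM. The hatching enzyme gene astl3a.1.L, named after its values had been seen, read 1.0, 29.4 and 191.7 in ICD and 2.1 and 0.8 in HMM. It exceeded the filter value on ICD replicate 3 alone, the array that stood apart in its poly-A controls, and was not tested. Of 11 tested genes of neural plate and neurons 3 rose and 8 did not pass, with a median of 0.93. They were the homeobox gene irx1.L (2.15), the neural progenitor gene sox11.S (1.93) and the RNA-binding protein gene msi1.L (1.51), while the hedgehog effector gene gli3.L differed by 1.22. Among those that missed the threshold were the pan-neural genes sox2.L (0.42) and sox3.S (0.32). Summed signals were 2863 to 4151 in ICD and 1422 and 1419 in HMM. Called genes of the gland list numbered 2 on leaving out ICD replicate 1 or 3 or HMM replicate 1, and those of the neural list then numbered 4, 1 and 2. Neither list had a called gene when ICD replicate 2 or HMM replicate 2 was left out. Of all tested probe sets, 3.63% were called higher without ICD replicate 1 and 0.301% without ICD replicate 3. The part of gland and neural tissue in the differences of the 5 genes was not tested. In RNA of whole explants more cells of a type and more RNA per cell cannot be told apart.

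The epidermis list had a median difference of -0.0816 over 21 tested genes, of which 4 rose, 1 fell and 16 did not pass. Among all tested probe sets, 1.55% were called higher and 3.5% lower. The risers were krt18.1.L (1.43), krt18.1.S (1.51), the basal factor gene tp63.L (1.56) and the adhesion gene epcam.L (0.94), of which krt18.1.L and epcam.L lost their calls in eBayes with no trend (limma adjusted p = 0.0656 and 0.0850). The ionocyte factor gene foxi1.L was the 1 called lower in ICD, at 3.4, 2.4 and 17.9 against 1550 and 2135 in HMM. Its call held with each ICD array left out, and which group moved is not shown. Its difference was -7.45 without HMM replicate 1 and -6.99 without HMM replicate 2. It passed the filter through the HMM arrays alone, and its fitted difference of -7.22 depends on the pseudocount, since the ICD signals lie near it. In the same list the risers numbered 5 on leaving out ICD replicate 1, 1 on leaving out HMM replicate 1 and 0 on leaving out any other array. The share of all tested probe sets called higher was 3.63% without ICD replicate 1. Summed signals of the epidermis list overlapped, with 66330 to 87000 in ICD and 70140 and 80520 in HMM. Of 24 mesoderm and muscle genes 22 did not exceed the filter value on at least 2 arrays and were not tested. The muscle creatine kinase gene ckm.L rose by 1.52 (a call lost when ICD replicate 2, ICD replicate 3 or HMM replicate 2 was left out) and the troponin gene tnni2.S differed by -0.49. The summed signal of these 2 was 652 to 846 in ICD and 318 and 607 in HMM.

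**Figure D4:**
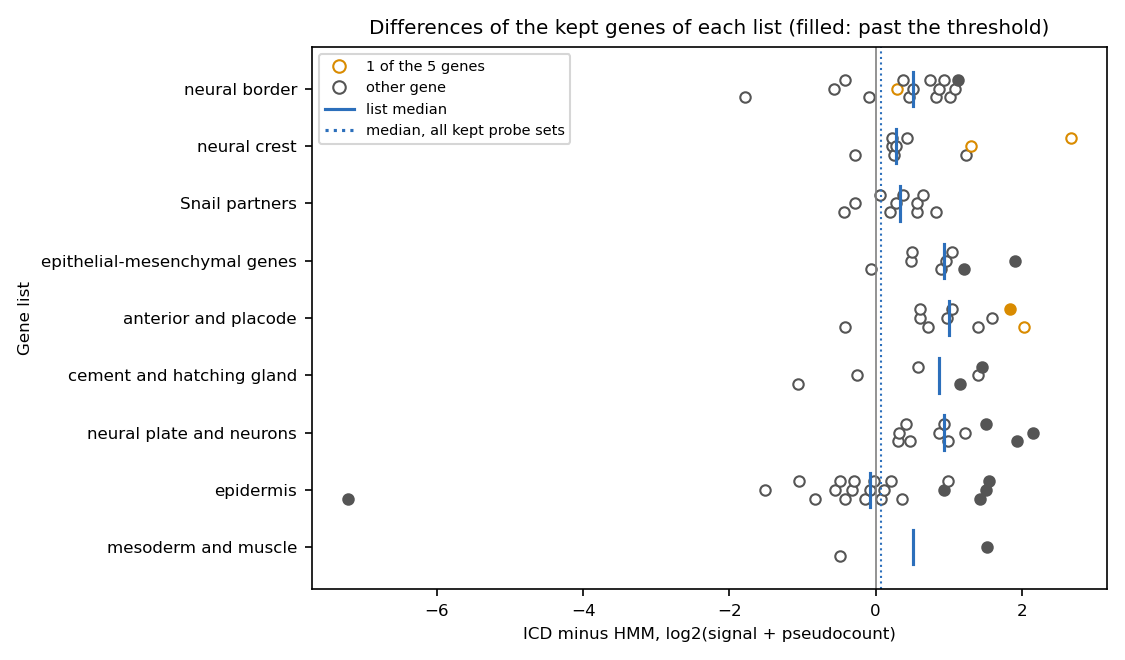
Difference of ICD minus HMM in log2(signal + 5.9) of each tested gene, by list, with the 5 genes in orange, genes past the threshold filled, list medians as blue bars and the median of all tested probe sets (0.0776) dotted. The anterior, neural plate and epithelial-mesenchymal lists have medians of 1.01, 0.93 and 0.93, while that of the epidermis list is -0.0816.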

How the data were processed

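The deposited table holds a linear intensity for each probe set on each array. MAS5 made these values, per the submitters' processing notes, and its version and settings are not given in the sources. The 2% trimmed mean was 200.03 on every array, so no further scaling was applied. Of 15611 probe sets, 120 controls were left out. The platform annotation gave 1 symbol to 9304, several to 195 and none to 5992 of the rest. Of the probe sets with 1 symbol, 9227 had a gene ID that was found in a RefSeq table (Xenopus_laevis_v10.1). Those with several symbols stay unnamed.

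The pseudocount of 5.9 and the filter of 42.6 are the 10th and 40th percentiles of all values. Groups were compared in limma 3.58.1 (R 4.3.3) with lmFit and a trended eBayes, without covariates, two-sided, over 9981 probe sets and all 5 arrays, and the fit was tested on simulated data. Low MAS5 signals carry a large relative error, and the number of arrays limits the precision.

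The 5 genes, the 9 gene lists and the tests were chosen with earlier results of these data known. A list gene was matched by symbol, or by synonym where RefSeq has no gene of that symbol, and stands for its tested probe set of highest mean. Named are the 5 genes and their homeologs, up to 4 genes per list (called genes with the smallest p, then the largest differences), and the 3 nearest array profiles. Other list genes given with values were chosen after their values were seen. Alternatives were other scalings, pseudocounts, filters and variance models, a replicate block and each array left out. Figures were drawn with matplotlib 3.10.9.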

Additional observations from a re-analysis of the deposited data

How the results depend on the processing

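Under the 8 alternatives of scaling, pseudocount, filter and variance model, every difference of the 6 tested probe sets kept its sign and its side of the threshold, except that snai1.S passed with median centring (2.70, limma adjusted p = 0.0470). The probe set of snai2.S could not be tested under the higher filter. Over these settings otx1.L ranged from 1.80 to 1.87, pitx1.L from 1.98 to 2.07, snai1.S from 2.40 to 2.78 and snai2.S from 0.91 to 1.54. With each array left out the differences ranged from 1.49 to 2.18 for otx1.L, from 2.03 to 3.30 for snai1.S, from 1.09 to 1.67 for snai2.S, from 1.54 to 2.52 for pitx1.L, from -0.23 to 0.80 for set 1 of pax3.L and from -0.77 to 0.38 for set 2, whose sign also turned without ICD replicate 1 (0.27). Of 9981 probe sets 504 were called with all arrays, and 11 to 843 with 1 array left out. Of the 91 tested genes of the 9 lists together 15 were called (14 higher, 1 lower), and 1 to 27 with 1 array left out: 27 without ICD replicate 1, 9 without HMM replicate 1, 5 without ICD replicate 3, and 1 without ICD replicate 2 or HMM replicate 2. The cause of these changes was not tested, beyond the fewer arrays. eBayes without trend called 11 list genes. Averaging the tested probe sets of a gene called 15, though not all the same genes. With averaging pax6.L was called, and it was not in the main fit, where its brightest probe set stood for it. Most of its averaged probe sets passed the filter through ICD arrays alone.

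Deviations from the group means correlated across probe sets at 0.651 for the arrays numbered 1 and 0.508 for those numbered 2. The correlation was 0.4 for ICD replicate 3 with HMM replicate 2, which share no number. With 2 HMM arrays their deviations are equal with opposite sign, and those of the ICD arrays cancel out for each probe set. These correlations are therefore not independent of each other. The labels do not say that a number marks a shared batch, and 2 shared numbers do not settle the pairing. With the replicate number as a block 1714 probe sets and 37 list genes were called. The block leaves each probe set few residual degrees of freedom. The errors in that fit therefore lean on the variance of other probe sets, which limits its p-values. In that fit snai1.S (2.66, limma adjusted p = 0.00110) and pitx1.L (1.99, limma adjusted p = 0.00245) passed, and otx1.L (1.65) still did. ICD replicate 3 has no HMM array of its number, so it adds nothing to these differences, which equal those without that array. There, with no block, none of the 3 passed (limma adjusted p = 0.173, 0.233 and 0.0722).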

Other observations

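The eye and forebrain gene pax6.L, looked at after its values had been seen, is measured by 6 probe sets that disagree in the size of their difference. The brightest of the 4 tested, which stood for the gene in the anterior list, read 48.3, 64.4 and 75.3 in ICD and 43.9 and 28.2 in HMM. Another read 37.5, 85.8 and 81.8 in ICD and 4.0 and 6.2 in HMM, where the HMM signals lie near the pseudocount of 5.9. The 3 tested probe sets other than the brightest passed the filter of 42.6 through ICD arrays alone, so they were tested because ICD was high, and no count of their calls is given. Every ICD array lay above both HMM arrays on all 6, an order found in 16.3% of all 15491 probe sets, and the 6 measure 1 gene.

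Fibronectin was measured by 4 probe sets of fn1.S, and all were called higher, with differences of 1.21 to 2.06, where 1.55% of all tested probe sets were. They measure 1 gene, some of them from the same source sequence. The gene was looked at because of its likeness to otx1.L, which was high in ICD, so its calls follow in part from that choice. Its brightest probe set lost its call without ICD replicate 2 (limma adjusted p = 0.0952) or ICD replicate 3 (limma adjusted p = 0.0729). It was not called either without HMM replicate 1 (difference 1.37) or HMM replicate 2 (1.05), which leaves 1 HMM array.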
